A study of Drosophila melanogaster with 7 samples.

Results

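The genes described here are 34 regulators of the cell cycle and of DNA replication, measured by RNA sequencing in dissected midguts of Drosophila melanogaster. They were taken by gene name from a list of the pathway, written with earlier results of these data known, and all 34 were matched among 24204 annotated features, of which 17834 carry FlyBase gene numbers. All flies were unmated females labelled as strain sg-Gal4,UAS-GFP, kept in sealed cabinets at 10% oxygen (hypoxia, 3 libraries), 20% oxygen (normoxia, 3 libraries) or 40% oxygen (hyperoxia, 1 library), and gut RNA was extracted on day 53. Every group thus carries the same Gal4 driver and GFP reporter, and the labels do not say in which cells the driver is active. The labels put replicates 1 and 2 at 10% and 20% oxygen in batch 1, and replicate 3 of both groups and the 40% library in batch 2. Whether replicates are separate animals or cultures is not stated there, so a p-value here measures only how much these samples spread, which may be technical. The comparisons address how oxygen supply bears on upkeep of the gut.

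A cell that is to divide first commits to DNA synthesis under G1/S cyclins and E2F transcription factors, loads the MCM helicase onto replication origins, copies its DNA and then enters mitosis under mitotic cyclins bound to Cdk1. In the adult fly midgut, intestinal stem cells are the main dividing cells, while young enterocytes copy their DNA without dividing, so replication genes and mitotic genes need not be used by the same cells. Mitotic cyclins and their partners are also stored as maternal RNA in the ovary, an organ that lies beside the gut, and osk, whose RNA is made in the female germline, was therefore read beside every gene. In a bulk sample, fewer cells of a type and less RNA per cell cannot be told apart.

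Library totals were 19.22 to 22.22 M counts (M, mega). Transcripts of the mitochondrial genome took 4.1% to 4.68% of counts in batch 1 and 61.0%, 64.0% and 71.0% in the batch 2 libraries at 10%, 20% and 40% oxygen, which left 7.49, 7.0 and 5.73 M other counts there. Enterocyte markers, summed over 9 genes, were 50100 to 58500 CPM in batch 1, 30100 to 31800 CPM at 10% and 20% in batch 2, and 18300 CPM at 40%, while 12 visceral muscle genes summed to 569 to 871 CPM in batch 1 and 10000 to 11900 CPM in batch 2. CPM here are counts per M counts after TMM scaling, which adjusts library sizes for composition. None of the enterocyte markers was at 0 in any library, so the midgut label fits them. The RNA of osk stood at 8.72, 0.142 and 0.722 CPM in replicates 1, 2 and 3 at 10%, at 9.01, 40.5 and 2.06 CPM at 20%, and at 0 counts at 40%. Thus 10% replicate 2 was almost without osk, 20% replicate 2 had the most, and replicate 1 was alike at both oxygen levels. Summed over 15 ovary germline markers the levels were 53.4, 18.9 and 27.7 CPM at 10%, 60.2, 152 and 28.4 CPM at 20%, and 19.9 CPM at 40%, where 5 of the 15 were at 0, osk among them. Much of the low sums came from a few genes that did not follow osk. In batch 2 grk and gcl were at 12.6 and 9.21 CPM at 10%, 8.66 and 7.55 CPM at 20%, and 7.74 and 7.3 CPM at 40%. In 10% replicate 2 gcl and exu were at 11.3 and 5.64 CPM. Eggshell genes made by follicle cells, 9 in all, summed to 73.2, 0.425 and 5.6 CPM at 10%, 210 (the highest), 51.5 and 6.6 CPM at 20%, and 2.1 CPM at 40%. At 40% 6 of the 9 were at 0, and yellow-g alone was at 1.88 CPM. In batch 2 yellow-g was at 2.71 CPM at 10% and 1.29 CPM at 20%, against 0.154 CPM or less in batch 1.

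The 34 genes were weakly expressed. Their mean level over the 7 libraries, per transcript length, ran from 0.106 TPM for thr, which encodes separase, to 10.7 TPM for Dp, the partner protein of E2F factors, with a median of 0.994 TPM. At least 1 TPM was reached by 23 of the 34 in batch 1 and by 7 in batch 2. In the 40% library 15 of the 34 had fewer than 10 counts and 6 had 3 counts or fewer, namely CycB3, stg, borr, fzy, pim and thr. With 3 counts taken as the floor, the lowest readable level was 0.0827 to 0.0923 CPM in batch 1 and 0.257 to 0.332 CPM in batch 2. Low members could therefore be compared far less closely in batch 2, which holds the 40% library.

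**Figure D1:**
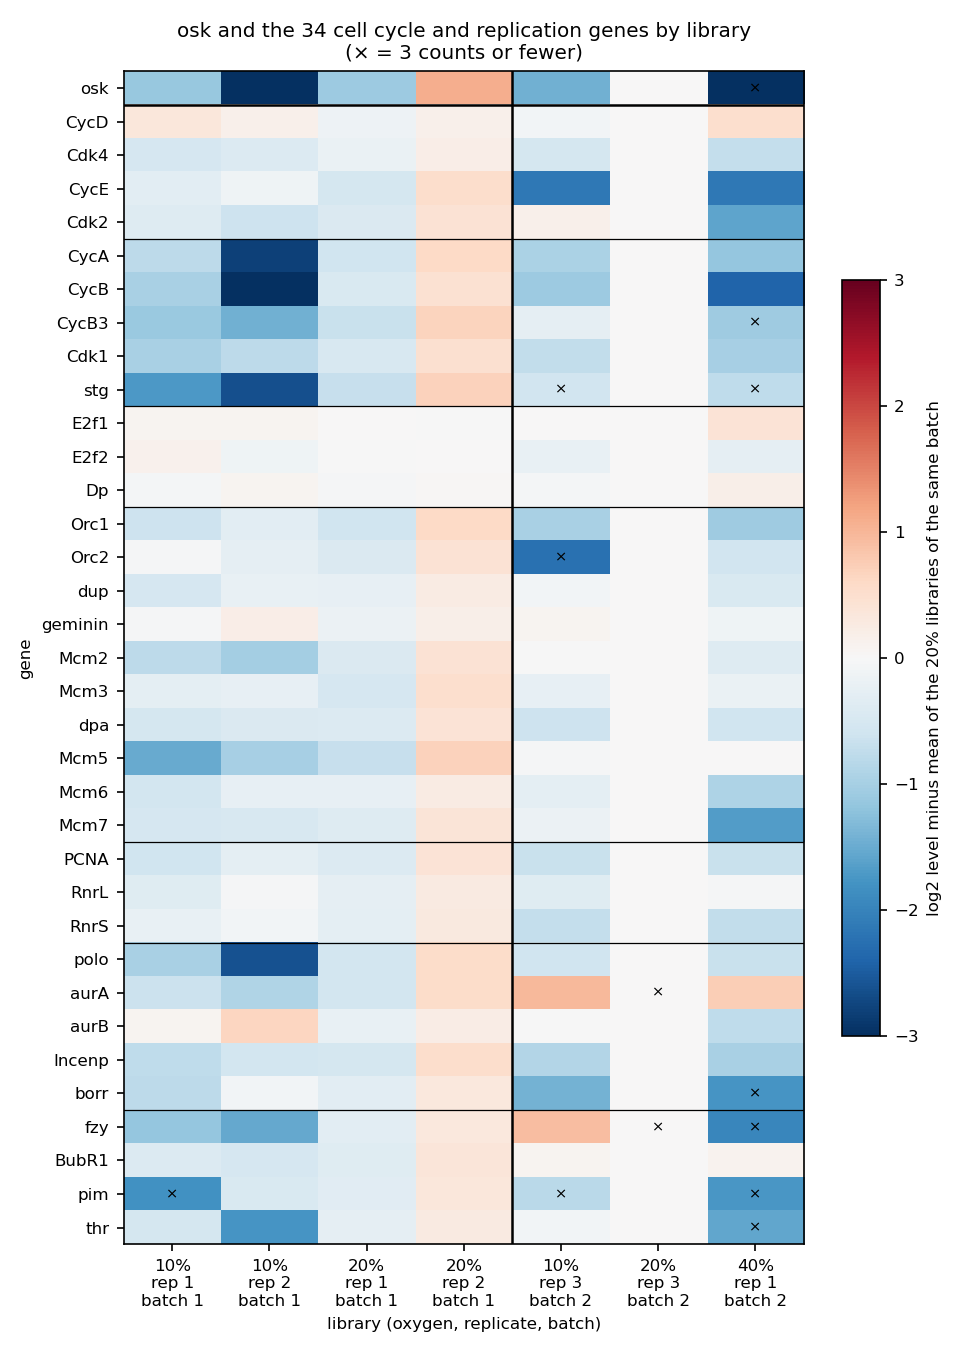
Colour gives the log2 level (counts plus 0.5, per TMM-scaled library size) of osk and the 34 genes in each of the 7 libraries, minus the mean of the 20% libraries of the same batch; lines separate roles and the batches, and crosses mark 3 counts or fewer. CycA, CycB, stg and polo are darkest blue in 10% replicate 2, as osk is, while the E2F factors stay near white in every 10% library.

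At 10% against 20% oxygen the 4 lowest values belonged to stg, CycB, CycA and polo, and the smallest differences to the E2F factors. CycB, the main B-type cyclin, differed by a log2 fold change of -1.63 (SE 0.72), stg, the Cdc25 phosphatase that switches Cdk1 on, by -2.01 (SE 0.61), and polo, a kinase of mitotic entry and spindle assembly, by -1.40 (SE 0.58). The transcription factor genes E2f1 and Dp differed by 0.06 (SE 0.06) and -0.01 (SE 0.07). None of these passed the test. By edgeR, 0 of the 33 members tested had an adjusted p below 0.05 (range 0.776 to 0.998), and 0 of all 9278 genes tested did (0%), with 584 of them at an unadjusted p below 0.05 (6.29%), while DESeq2 called 124 genes and none of the members. pim, which encodes securin, was too low to be tested.

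At an unadjusted p below 0.05 there were 3 of the 33 members, stg, Cdk4 and Cdk1, all lower at 10% and each with an adjusted p of 0.776 by edgeR. Over all genes tested, 2.44% were lower at that threshold. Of the 33 members 29 had a log2 fold change below 0, with a median of -0.55, against 47.9% of all genes tested and a median of 0.01. Without 20% replicate 2, the library with the most osk, 75.8% of the members were below 0 and their median was -0.29. Both batch 1 libraries at 10% lay below both at 20% for 16 of the 33 members, against 20.4% of all genes, and above both for 2, against 18.8%. Of the 4 batch 1 libraries 20% replicate 2 was highest for 27 of the 33 members, against 29.5% of all genes. In batch 2 the library at 10% lay below that at 20% for 27 of the 33, against 42.6% of all genes. Both held for 13 members, against 8.84% of all genes. A test of whether the difference at 10% itself differed between the batches had an adjusted p of 0.505 or more by edgeR for each of the 33. That test had only 1 library per oxygen level in batch 2.

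Taken by role, the 5 genes of the mitotic cyclins, Cdk1 and its phosphatase stood together. CycB was at 12.8, 2.04 and 3.61 CPM in replicates 1, 2 and 3 at 10%, against 18.3, 34.8 and 7.80 CPM at 20%. The groups did not overlap within either batch, and the 10% libraries of batch 1 themselves lay far apart. CycA, an A-type cyclin chosen for description after its values were seen, was at 8.67, 2.16 and 2.08 CPM at 10%, against 9.87, 22.9 and 4.03 CPM at 20%, and its log2 fold change was -1.42 (SE 0.63). stg was at 0.547, 0.284 and 0.271 CPM at 10%, against 1.14, 3.0 and 0.429 CPM at 20%, with only 3 and 5 counts behind the values in batch 2. CycB3, another B-type cyclin, and Cdk1, the kinase all 3 cyclins bind, had log2 fold changes of -1.15 (SE 0.49) and -0.92 (SE 0.33). All 5 of these genes were lower at 10% in every library of both batches, and none passed the test. In batch 2 CycB3 had 7 counts at 10% and 9 at 20%, and Cdk1 had 6 and 11. The 95% intervals from counts of these 2 ratios, 0.259 to 2.47 and 0.174 to 1.69, reach above 1, as does that of stg (0.0981 to 3.25). Markers of other tissues were read beside these 5 genes. The 6 Malpighian tubule and hindgut markers summed to 249, 93.8 and 134 CPM at 10%, against 207, 275 and 226 CPM at 20%. The lowest and highest of these sums were in the libraries where CycB was lowest and highest. Most single markers did not share that order. Only Uro was highest of batch 1 in 20% replicate 2, and 3 of the 5 tested were lowest in 10% replicate 2. Of those 6 markers 4 of 5 tested were below 0 at 10% (median -0.71), as were 12 of 12 visceral muscle genes (median -0.21), and none passed the test. The muscle genes were lower at 10% in batch 1 only. In batch 2 just 1 of the 12 was lower, and they summed to 11900 CPM at 10%, against 10700 CPM at 20%. The part of these tissues in the result was not tested.

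The mitotic kinases and the chromosomal passenger complex, which corrects the attachment of chromosomes to the spindle, were less uniform. polo was at 2.97, 0.936 and 1.17 CPM at 10%, against 4.0, 8.51 and 1.80 CPM at 20%, so that every 10% library lay below the 20% libraries of its batch. borr, the Borealin subunit of the complex, was at 0.691, 1.13 and 0.452 CPM at 10%, against 0.953, 1.49 and 1.29 CPM at 20%, and its groups overlapped in batch 1. Incenp, the scaffold of the complex, stood at a log2 fold change of -0.79 (SE 0.34), aurB, its kinase, 0.26 (SE 0.28), and aurA, a kinase of the centrosomes, -0.44 (SE 0.57). Thus 4 of 5 were below 0, while aurB had the highest value of the 33 members tested.

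In the group that holds and then splits sister chromatids, levels were close to the floor. fzy, the Cdc20 activator of the anaphase-promoting complex, was at 0.374, 0.284 and 0.361 CPM at 10%, against 0.677, 1.07 and 0.172 CPM at 20%, with 4 and 2 counts in batch 2, where the order was the opposite of that in batch 1. pim was at 0.0576, 0.170 and 0.271 CPM at 10%, against 0.185, 0.303 and 0.515 CPM at 20%. The spindle checkpoint kinase gene BubR1 differed by -0.35 (SE 0.29) on the log2 scale and thr by -0.78 (SE 0.48). None of the 3 genes tested passed. In the replicate 2 pair alone, 1 library against 1, fzy at 10% was 0.264 of its 20% level (95% interval from counts 0.117 to 0.538), thr 0.232 (0.0864 to 0.538) and BubR1 0.546 (0.352 to 0.834). In that pair osk at 10% was 0.0035 of its 20% level. In the replicate 1 pair, near-equal in osk, fzy was at 0.553 (0.256 to 1.15), thr at 0.838 (0.409 to 1.7) and BubR1 at 0.962 (0.591 to 1.57). In batch 2 the values were 2.11 for fzy, 0.936 for thr and 1.05 for BubR1.

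The G1/S genes split. CycD, the cyclin that couples growth to division, was at 8.84, 7.83 and 6.32 CPM at 10%, against 6.37, 7.77 and 6.69 CPM at 20%, and its log2 fold change was 0.14 (SE 0.14). CycE, whose kinase starts DNA synthesis in dividing and in endoreplicating cells, was at 1.87, 2.13 and 0.452 CPM at 10%, against 1.6, 3.36 and 2.14 CPM at 20%, with 5 and 25 counts in batch 2. Its batch 1 libraries overlapped, and its log2 fold change was -0.77 (SE 0.49). Cdk2, the kinase partner of CycE, was at 1.24, 1.05 and 1.63 CPM at 10%, against 1.2, 2.2 and 1.46 CPM at 20%, and overlapped as well. Cdk4, the partner of CycD, was lower at 10% in both batches, with a log2 fold change of -0.48 (SE 0.15).

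The E2F factors, which control replication genes, had the 3 smallest absolute fold changes of the 33 members tested. E2f1, the activating E2F, was at 40.6, 40.9 and 21.4 CPM at 10%, against 38.7, 38.4 and 21.1 CPM at 20%. Dp was at 28.8, 31.6 and 25.4 CPM at 10%, against 29.1, 30.8 and 26.5 CPM at 20%. E2f2, the repressing E2F, was at 6.48, 5.42 and 3.88 CPM at 10%, against 5.90, 6.03 and 4.55 CPM at 20%, and its log2 fold change was -0.07 (SE 0.13). With 945 counts or more in every batch 1 library, E2f1 and Dp were the best measured members.

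Of the 10 origin licensing and helicase genes 9 were below 0, with a median of -0.51. Mcm5, a subunit of the helicase ring, was at 1.04, 1.5 and 1.08 CPM at 10%, against 1.85, 4.88 and 1.11 CPM at 20%, a log2 fold change of -1.05 (SE 0.51) that became -0.36 (SE 0.31) without 20% replicate 2. Mcm7 was at 2.53, 2.55 and 1.35 CPM at 10%, against 2.74, 4.71 and 1.54 CPM at 20%. The other helicase subunits Mcm2, Mcm3, dpa (the fly Mcm4) and Mcm6 had log2 fold changes of -0.71, -0.33, -0.57 and -0.38, and the origin recognition subunits Orc1 and Orc2 of -0.70 and -0.66. dup, the Cdt1 protein that loads the helicase, was at 3.60, 4.40 and 1.63 CPM at 10%, against 4.27, 6.12 and 1.72 CPM at 20%, overlapping in batch 1. Its inhibitor geminin was at 5.93, 6.98 and 7.13 CPM at 10%, against 5.35, 6.86 and 6.77 CPM at 20%, the only gene of the 10 above 0 (log2 fold change 0.08, SE 0.14).

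At the replication fork, PCNA, the sliding clamp of the polymerases, was at 4.06, 5.02 and 1.54 CPM at 10%, against 4.64, 8.18 and 2.49 CPM at 20%. RnrS, the small subunit of ribonucleotide reductase, which makes the DNA precursors, was at 15.9, 17.4 and 9.84 CPM at 10%, against 15.2, 22.8 and 16.3 CPM at 20%. Both overlapped in batch 1, where 20% replicate 2 alone stood above the 10% libraries, and their log2 fold changes were -0.55 (SE 0.26) and -0.35 (SE 0.20). RnrL, the large subunit, had a log2 fold change of -0.26 (SE 0.19).

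**Figure D2:**
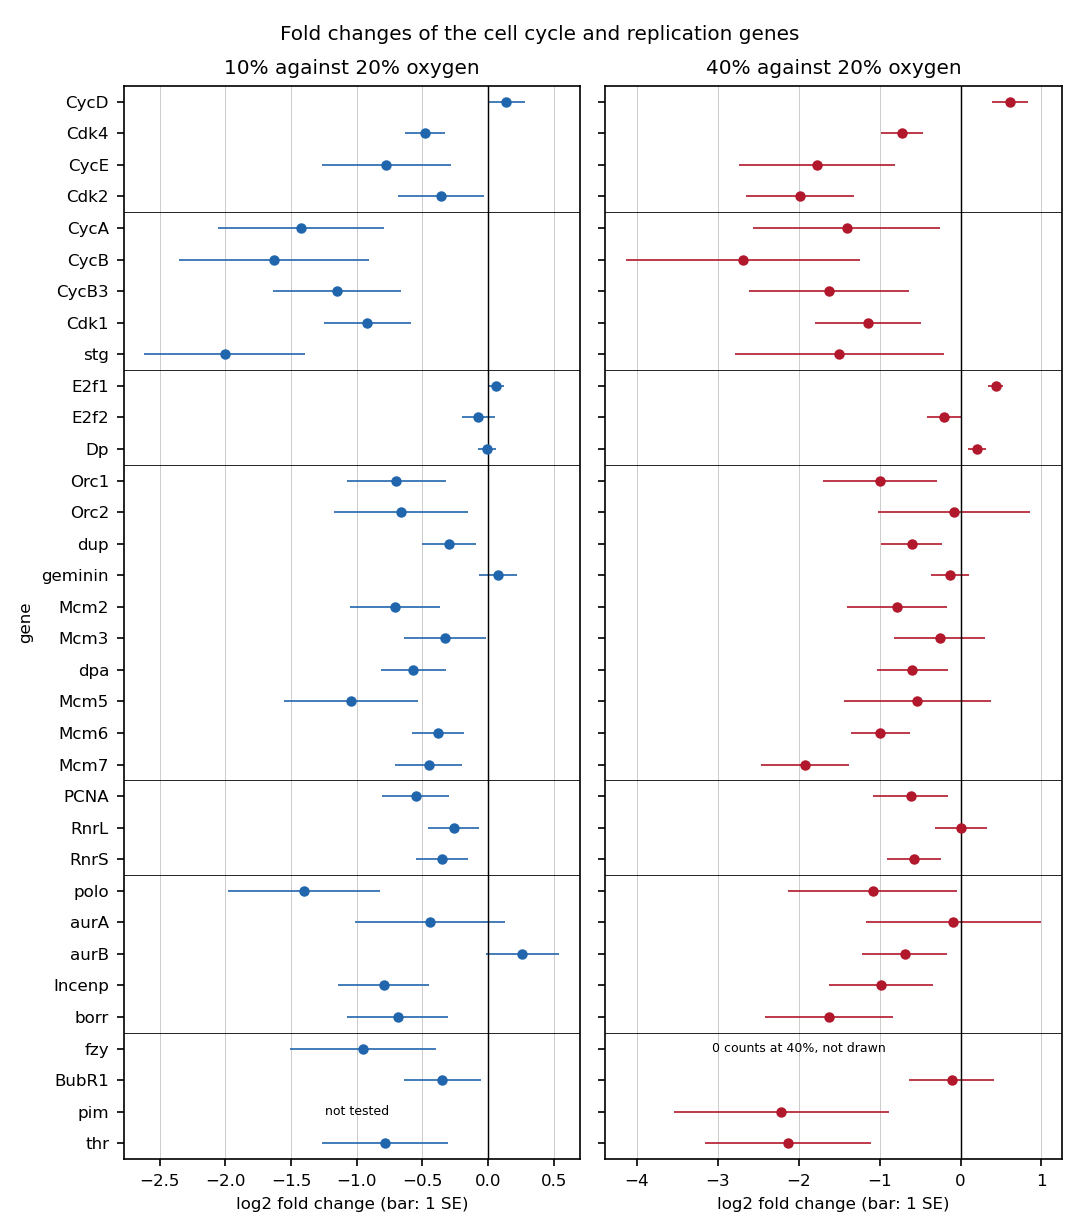
Points are log2 fold changes of each gene by edgeR at 10% against 20% oxygen (left) and 40% against 20% (right), with bars of 1 SE; the horizontal scales differ and lines separate the roles. At 10% the mitotic cyclins, Cdk1, stg and polo lie between -2.01 and -0.92 with wide bars, the E2F factors lie at 0 with narrow ones, and none of the members passed the test in either comparison.

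Libraries of the same oxygen level also differed, and members of one role did not all move together. Within 10% oxygen, osk in replicate 2 was 0.0163 of its level in replicate 1 (95% interval from counts 0.00524 to 0.0384; the exact conditional intervals here cover counting error only). CycB in replicate 2 was 0.159 of its level in replicate 1 (0.122 to 0.204), CycA 0.249 (0.191 to 0.321), and polo 0.316 (0.206 to 0.471). Also lower were thr at 0.406 (0.142 to 1.03) and stg at 0.518 (0.215 to 1.17), though their intervals reach above 1. Some mitotic genes showed no such gap: Cdk1 stood at 1.13 times its level in replicate 1 (0.657 to 1.94), Incenp at 1.15 (0.683 to 1.96), aurB at 1.49 (0.943 to 2.39) and borr at 1.64 (0.966 to 2.85). By role, 4 of 5 genes of the mitotic cyclin group were lower in replicate 2, and all 3 spindle checkpoint and sister separation genes with at least 20 counts in the pair. Among mitotic kinases and passenger genes 2 of 5 were lower, and 2 of 10 licensing and helicase genes. Genes of the replication fork were not lower in that library: PCNA stood at 1.24 times its level in replicate 1 (0.985 to 1.55), RnrL at 1.25 (1.06 to 1.49) and RnrS at 1.09 (0.973 to 1.23). More than 2-fold below replicate 1 were 4 of the 33 members with at least 20 counts in the pair, against 5.4% of 9293 genes, and 14 of the 33 were below it at all, against 49.3% of genes. Some markers of Malpighian tubule and hindgut, organs joined to the midgut at its end, were low in the same library. Uro, NaPi-T and Irk2 were lowest of batch 1 there, whereas Irk1, byn and otp were not. Uro was at 8.22 CPM in replicate 2 and 85.4 CPM in replicate 1, and NaPi-T at 5.96 and 84.5 CPM.

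Within 20% oxygen nearly all members were higher in 1 library. There osk in replicate 2 was 4.49 times its level in replicate 1 (3.96 to 5.11), and all but 1 of 33 members were higher as well, when 48.3% of all genes were lower. The members' median log2 ratio was 0.81, against 0.01 over all genes; 10 of the 33 were more than 2-fold higher, against 3.3% of genes. CycA stood at 2.32 times (2.04 to 2.65), CycB at 1.90 (1.73 to 2.10), PCNA at 1.76 (1.44 to 2.16) and RnrS at 1.5 (1.34 to 1.68), so replication genes were higher there too. E2f1 at 0.993 (0.919 to 1.07) and Dp at 1.06 (0.972 to 1.16) did not differ beyond counting error.

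The replicate 1 libraries allow a comparison at near-equal osk, at 10% 0.968 times the level at 20% (0.822 to 1.14). In that pair 23 of 33 members were lower at 10%, against 49.7% of genes, and their median log2 ratio was -0.13. CycB was at 0.703 of its 20% level (0.620 to 0.796), stg at 0.481 (0.261 to 0.858), polo at 0.742 (0.567 to 0.968), CycA at 0.878 (0.748 to 1.03) and PCNA at 0.874 (0.690 to 1.11). All 5 genes of the mitotic cyclin group were lower. In the replicate 2 pair, in which osk at 10% was 0.0035 of its level at 20%, CycB was at 0.0587 (0.0456 to 0.0745) and CycA at 0.0940 (0.0733 to 0.119), while RnrS was at 0.766 (0.689 to 0.852) and PCNA at 0.613 (0.506 to 0.741). Near-equal osk was not equal ovary RNA in the replicate 1 pair. There the eggshell genes summed to 73.2 CPM at 10%, against 210 CPM at 20%. Germline RNAs went both ways, but most of the 15 markers were lower at 10%. Among these were nanos at 2.33 CPM, against 4.37 CPM, swa at 1.9 CPM, against 3.57 CPM, and pgc at 0.892 CPM, against 1.72 CPM. So were piwi at 1.73 CPM, against 2.49 CPM, and spn-E at 0.605 CPM, against 0.984 CPM. The only markers higher at 10% were orb at 5.07 CPM, against 4.18 CPM, aub at 1.32 CPM, against 0.984 CPM, and BicC at 0.892 CPM, against 0 CPM. All 15 germline markers summed to 53.4 CPM at 10%, against 60.2 CPM at 20%. Each of these pairs is 1 library against 1, with no replicate check.

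With the mean log2 level of the ovary germline markers in each library as a further term in the fit, the median of the members at 10% against 20% was -0.36 and 78.8% of the 33 were below 0. Several mitotic genes moved by about 1 on the log2 scale. CycB was at -0.44 (SE 0.16), CycA at -0.30 (SE 0.16), polo at -0.36 (SE 0.26) and stg at -0.98 (SE 0.60). PCNA at -0.54 (SE 0.41), RnrS at -0.36 (SE 0.30) and RnrL at -0.31 (SE 0.30) stayed near their values without the term. No member passed the test in that fit either (adjusted p of 1 for these 7 genes by edgeR). The germline markers were themselves lower at 10%, 14 of 14 tested, at a median of -2.14 on the log2 scale, so the term and the oxygen level overlap.

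**Figure D3:**
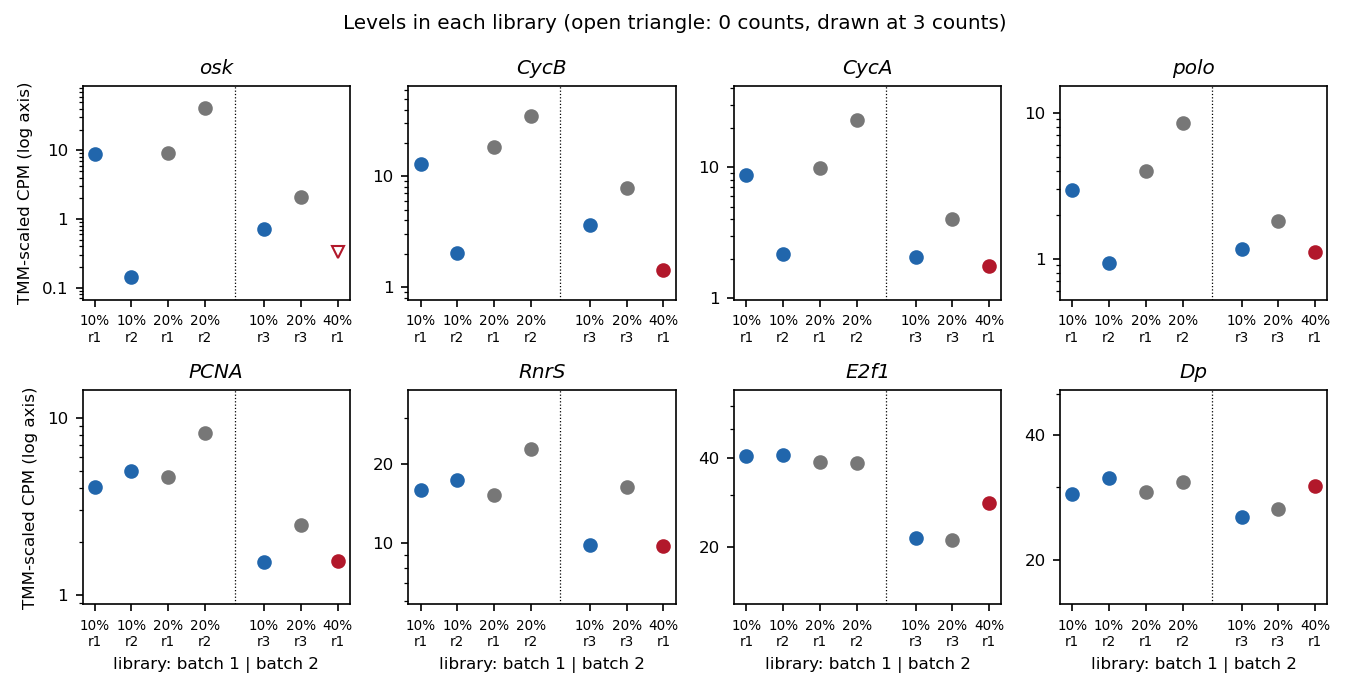
TMM-scaled CPM of osk, CycB, CycA, polo, PCNA, RnrS, E2f1 and Dp in each library, on log axes whose ranges differ between genes, with batch 1 left and batch 2 right of the dotted line (blue 10%, grey 20%, red 40% oxygen). CycB, CycA and polo are lowest of batch 1 in 10% replicate 2 and highest in 20% replicate 2, as osk is, whereas PCNA and RnrS are not lowest in 10% replicate 2 and E2f1 and Dp are level within batch 1.

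Estimated isoform levels are given for CycA and polo in batch 1, a pair chosen after their values were seen. CycA (chromosome 3L, 11826719 to 11833578, minus strand, BDGP6.54) has a shorter transcript of 2555 bases and a longer one of 2916 bases. The shorter was at 3.55 and 0.53 TPM in replicates 1 and 2 at 10%, against 3.89 and 9.37 TPM at 20%, while the longer was at 0.59 and 0.47 TPM at 10%, against 0.54 and 1.93 TPM at 20%. The longer transcript thus made up 14.3% and 47.4% of CycA at 10%, against 12.2% and 17.1% at 20%. For polo (3L, 20309654 to 20313466, plus strand) the shorter transcript of 2324 bases was at 1.44 and 0.26 TPM at 10%, against 1.73 and 3.53 TPM at 20%, and the longer one of 2980 bases was at 0.13 and 0.20 TPM at 10%, against 0.23 and 0.96 TPM at 20%. Against replicate 1 at 10%, the lower level in replicate 2 lay mainly in the shorter transcripts. Against 20% replicate 2, both transcripts of both genes were lower. These are description only: the split of reads between overlapping transcripts is an estimate, and at the counts of batch 2 the shares of polo ran from 19.2% to 100% for the longer transcript. The estimates were unsteady for several members. In batch 1 single isoforms of Cdk4, Cdk2 and PCNA changed between 0 and most of the gene, and in batch 2 those of dup did, whereas dup-RB made up 40.1% and 43.2% of dup at 10%, against 41.2% and 44.3% at 20%, in batch 1.

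**Figure D4:**
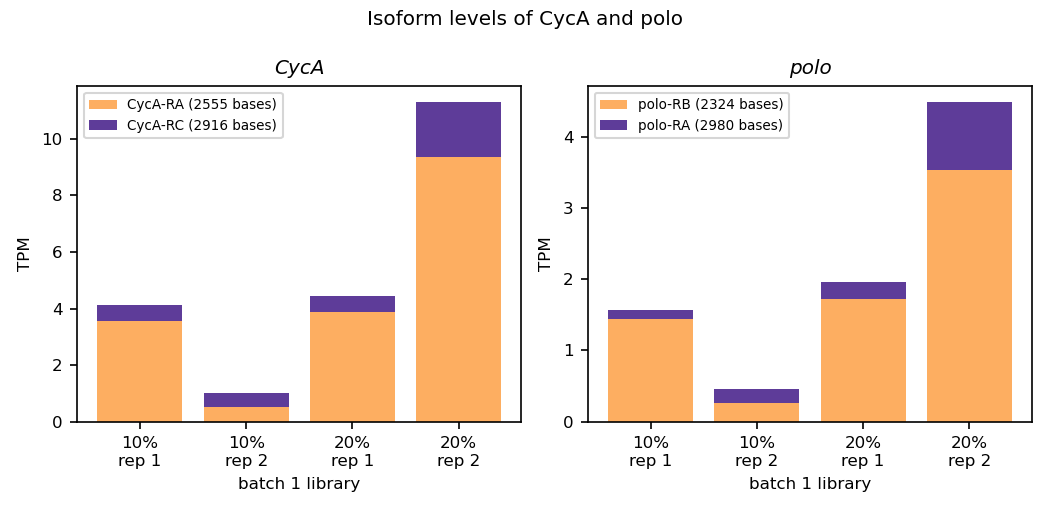
Stacked bars give the estimated TPM of the shorter (orange) and longer (purple) transcripts of CycA and polo in the 4 batch 1 libraries, starting at 0. The orange part is smallest in 10% replicate 2, at 0.53 TPM for CycA and 0.26 TPM for polo, where the purple part is 0.47 and 0.20 TPM.

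E2f1 and Dp had isoform shares that went with the batch. The transcript E2f1-RE made up 26.4% and 25.6% of E2f1 in batch 1 at 10%, 28.3% and 21.0% at 20%, and in batch 2 51.8% at 10%, 49.1% at 20% and 75.4% at 40%. Dp-RB made up 37.6% to 49.2% of Dp in batch 1, and 63.9%, 69.5% and 81.3% in batch 2 at 10%, 20% and 40%. The 40% library had the highest share of both, and it is also the library with the highest mitochondrial share; what part these differences between libraries play in the shares was not tested.

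At 40% oxygen, measured in 1 library, CycB, Cdk2, Cdk4, Mcm6 and Mcm7 had lower levels than in the 20% library of the same batch, and E2f1 and CycD had higher ones, none of them called by edgeR. By edgeR 0 of the 34 members had an adjusted p below 0.05 at 40% against 20% (range 0.076 to 1), when 319 of 10068 genes did (3.17%; 0 to 69 genes with any 1 replicate at 10% or 20% left out), and DESeq2 called 972 genes and 1 member, E2f1. At an unadjusted p below 0.05 there were 6 members, against 21% of all genes. Of the 34 members 30 were below 0, and their median was -0.75 on the log2 scale (-0.61 over the 28 with more than 3 counts at 40%), against 52.7% of all genes and a median of -0.03. The 40% library lay below both other batch 2 libraries for 23 of the 34, against 37.9% of all genes, and above both for 4, against 36%. These fits assume that the single 40% library varies as the others do, and its germline marker sum was the lowest of batch 2. Against 10% oxygen 22 of 34 were below 0 (51.3% of all genes), with a median of -0.20, and edgeR called 0 members (adjusted p 0.120 to 1), with 2 at an unadjusted p below 0.05 (19.7% of all genes) and 0 called by DESeq2; over all 10068 genes edgeR called 117 (1.16%). Both comparisons use the same 40% library.

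CycB was at 1.44 CPM at 40%, with 13 counts, against 7.80 CPM at 20% and 3.61 CPM at 10% in batch 2, that is 0.184 of the 20% level (95% interval from counts 0.0945 to 0.331). Its fitted log2 fold change against 20% was -2.69 (SE 1.45, adjusted p = 0.374 by edgeR). CycA was at 1.77 CPM at 40%, against 4.03 CPM at 20%, and polo at 1.11 CPM, against 1.80 CPM at 20%. Both were near their 10% levels of 2.08 and 1.17 CPM in the same batch. stg had 2 counts at 40%, against 5 at 20%, and fzy had 0, against 2, too few to compare.

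Among the G1/S genes the values parted. CycD (chromosome X, 15906822 to 15909676, minus strand) was at 9.51 CPM at 40%, against 6.69 CPM at 20% and 6.32 CPM at 10% in batch 2. Its log2 fold change against 20% was 0.61 (SE 0.22, adjusted p = 0.205 by edgeR). Cdk4 was at 2.87 CPM at 40%, against 4.80 CPM at 20% and 3.34 CPM at 10% (log2 fold change against 20% of -0.72, SE 0.26). Cdk2 was at 0.442 CPM at 40%, against 1.46 CPM at 20% and 1.63 CPM at 10%, with 4, 17 and 18 counts. CycE was also at 0.442 CPM with 4 counts, against 2.14 CPM at 20%, but its 10% library was no higher, at 0.452 CPM.

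E2f1 (chromosome 3R, 21620304 to 21660871, minus strand) was at 28.1 CPM at 40%, against 21.1 CPM at 20% and 21.4 CPM at 10% in batch 2. It had the lowest p of the 34 genes against 20%, with a log2 fold change of 0.43 (SE 0.09, adjusted p = 0.0760 by edgeR), and DESeq2 called it at 0.47 (adjusted p = 0.0437). On the log2(TPM + 1) scale, however, its value was 0.02 (SE 0.13), when the median over all genes was -0.32 on that scale. CycD likewise was 0.10 (SE 0.22) there. TPM is a share of all transcripts, and mitochondrial ones took 71.0% of counts at 40%, against 64.0% at 20% in batch 2. Why the 2 scales differ for E2f1 was not tested. Dp was at 30.1 CPM at 40%, against 26.5 CPM at 20% (log2 fold change 0.21, SE 0.11; -0.18 on the TPM scale, a change of sign), and E2f2 at 3.76 CPM, against 4.55 CPM.

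All 10 licensing and helicase genes were below 0 at 40% against 20%, with a median of -0.60. Mcm7 (3L, 8891596 to 8894310, plus strand) had 4 counts, 0.442 CPM, at 40%, against 18 counts, 1.54 CPM, at 20% and 15 counts, 1.35 CPM, at 10%. Its log2 fold change against 20% was -1.92 (SE 0.54, adjusted p = 0.131 by edgeR). Mcm6 was at 1.33 CPM at 40%, against 2.57 CPM at 20% (log2 fold change -0.99, SE 0.37), and Mcm5 was at 1.11 CPM in both; whether the subunits differ from each other was not tested, and their intervals from counts overlapped (0.286 of the 20% level, 0.0705 to 0.87, for Mcm7, and 0.992, 0.389 to 2.45, for Mcm5). dup was at 1.22 CPM, against 1.72 CPM at 20%, and geminin at 6.19 CPM, against 6.77 CPM. PCNA at 1.55 CPM and RnrS at 9.73 CPM stood below their 20% levels of 2.49 and 16.3 CPM and level with their 10% levels of 1.54 and 9.84 CPM. RnrL showed no such gap, with 4.42 CPM at 40%, against 4.55 CPM at 20%. Of the passenger complex borr had 3 counts, 0.332 CPM, at 40%, against 15 counts, 1.29 CPM, at 20%, and pim had 1 count, against 6.

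The wider pathway was read from 111 further genes in 6 lists, none of which passed the test in any comparison by edgeR. At 10% against 20% oxygen 68 of 107 tested were below 0 (47.9% of all genes), with a median of -0.12, and 4 had an unadjusted p below 0.05 (6.29% of all genes). The 24 further replication fork genes, polymerases, clamp loader and single-strand binding proteins among them, had 19 below 0 and a median of -0.26. The 14 kinetochore and checkpoint genes tested had 6 below 0 and a median of 0.02, and the 12 genes of the anaphase-promoting complex and its partners 7 and -0.05. Origin firing genes stood at 9 of 14 and -0.12, genes of spindle, cytokinesis and chromosome structure at 19 of 29 and -0.22, and brakes and other regulators at 8 of 14 and -0.01. Among the brakes dap, the inhibitor of CycE with Cdk2, was at -0.01 (SE 0.23), rux, an inhibitor of mitotic cyclin kinase, at -0.02 (SE 0.23), Rbf, the retinoblastoma repressor of E2F, at 0.09 (SE 0.14), and fzr, the Cdh1 activator that drives endoreplication, at 0.11 (SE 0.12). At 40% against 20%, 71 of 110 were below 0 (52.7% of all genes) with a median of -0.20, and 12 had an unadjusted p below 0.05 (21% of all genes).

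Taken as a sum, markers of the dividing cell compartment had another order over the libraries than the mitotic cyclins, though Delta shared part of theirs. The transcription factor esg, which marks stem cells and their immediate daughters, was at 12.4, 14.7 and 9.12 CPM at 10%, 14.0, 10.7 and 11.2 CPM at 20%, and 10.2 CPM at 40%. Delta, the Notch ligand of stem cells, was at 3.08, 3.12 and 1.17 CPM at 10%, 2.46, 4.38 and 1.37 CPM at 20%, and 2.65 CPM at 40%. Like the mitotic cyclins, Delta was highest of batch 1 in 20% replicate 2 and lower at 10% than at 20% in batch 2, there with 13 and 16 counts. It was not lowest of batch 1 in 10% replicate 2, and in batch 2 it was highest at 40%. Summed over 7 progenitor markers the levels were 45.1, 54.6 and 29.6 CPM at 10%, 46.7, 43.8 and 37.3 CPM at 20%, and 35.3 CPM at 40%, none of them at 0. The highest sum was in 10% replicate 2, in which CycB, CycA and polo were lowest of batch 1.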

How the data were processed

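Per the file headers, the authors deposited 1 transcript table per library with expected counts (estimated reads, often fractional), effective lengths and TPM (a share of transcripts scaled to 1 M). The submitters' processing notes name STAR 2.7.11b and Salmon 1.10.3; neither settings nor build can be named, being not given in the sources used here. Each of the 41539 transcripts has the same length as in the BDGP6.54 annotation, from which coordinates were taken. For each gene the deposited expected counts were added up over its transcripts and rounded. The labels call the libraries strand-specific; whether counting used strand is not given, and 15 members overlap genes on the opposite strand, while 32 have no overlap on their own strand and the other 2 overlap only features at 0 counts. The range of 3 counts per library total was 0.135 to 0.156 per M counts, before TMM scaling.

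edgeR 4.0.16 (R 4.3.3) ran its quasi-likelihood test with batch as a covariate after TMM scaling and filterByExpr; calls had a Benjamini-Hochberg adjusted p below 0.05 over all genes tested. The comparison of 10% with 20% used those 6 libraries, and the comparisons with 40% used all 7. Per the labels, replicates numbered 3 share batch 2 and the others batch 1: the correlation across genes of same-numbered libraries, as deviations from the group mean, was 0.37 for number 1, 0.367 for number 2 and 0.697 for number 3, but within batch 1 the numbers did not pair (r = -0.046), so batch and not the replicate number was the covariate. No libraries agreed within sampling noise (chi-square per degree of freedom 35.1 or more). Scripts were tested on simulated data. Alternatives were DESeq2 1.42.0, its size factors, no low-count filter, no batch term, limma 3.58.1 on log2(TPM + 1) for genes with a mean of at least 1 TPM, removal of a length trend, a germline covariate, each replicate left out, a replicate block and batch 1 alone.

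The members and lists were chosen with earlier results of these data known. Values in every library are given for called members, for the highest member and those of largest fold change in each role, and for CycE, stg, E2f1, dup, geminin and PCNA. Enteroendocrine markers summed to 322 to 446 CPM. Promoter sequences were not analysed here.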

Additional observations from a re-analysis of the deposited data

How the results depend on the processing

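Depth limits the batch 2 values, with 15 of 34 members under 10 counts at 40% oxygen. Across these alternatives 1 test of a member passed, E2f1 at 40% against 20% by DESeq2. The number of genes called moved in several settings. DESeq2 called 124 genes at 10% against 20%, 972 at 40% against 20% and 815 at 40% against 10%. Its size factors within edgeR left 4 at 40% against 10%, no low-count filter gave 193 there, and no batch term left 1 in each 40% comparison. Calls on log2(TPM + 1) with limma numbered 1426 at 40% against 20% and 1407 at 40% against 10%, and the germline covariate left 0 in both. Leaving out 1 replicate gave 0 to 69 genes at 40% against 20% and 0 to 56 at 40% against 10%. The members' median was -0.19 at 10% against 20% on log2(TPM + 1), over the 19 members that pass its filter, and -1.41 at 40% against 20% and -0.68 at 40% against 10% with no batch term; at 10% against 20% it ran from -0.79 to -0.29 with 1 replicate left out. A replicate block in place of batch gave a median of -0.52 and 0 genes called at 10% against 20%, and changed no call.

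The signs of some log2 fold changes differed between settings. No member had passed the edgeR test in any comparison, so these could only be values that had not passed. With the germline covariate Cdk2 was 0.05, E2f2 0.02 and aurA 0.22 at 10% against 20%, and Orc2 0, RnrL -0.03, aurA 0.57 and BubR1 0.17 at 40% against 20%. With batch 1 alone Dp was 0.02 at 10% against 20%. With no filter RnrL was -0.03 at 40% against 20% and CycA -0.02 at 40% against 10%. With no batch term E2f1 was -0.22 and RnrL -0.82 at 40% against 20%, and at 40% against 10% CycA was -1.29, stg -0.74, E2f1 -0.29, Orc2 -0.16, Mcm3 -0.69, Mcm5 -0.13, RnrL -0.57 and polo -0.62. On log2(TPM + 1) Dp was -0.18 and RnrL -0.19 at 40% against 20%, and CycD 0, E2f1 -0.04, Dp -0.16 and RnrL -0.04 at 40% against 10%. With 1 replicate left out the ranges that held both signs were, at 10% against 20%, Cdk2 -0.57 to 0.02, Dp -0.06 to 0.02, geminin -0.02 to 0.19, Mcm3 -0.59 to 0.06 and aurA -0.89 to 0.20. At 40% against 20% they were RnrL -0.06 to 0.11, aurA -1.18 to 0.77, BubR1 -0.48 to 0.10 and Orc2 -0.63 to 1.64. At 40% against 10% they were CycA -0.26 to 0.42, PCNA -0.21 to 0.06, CycB3 -0.92 to 0.23, Orc2 -0.41 to 1.85, Mcm2 -0.42 to 0.56, dpa -0.17 to 0.09, Mcm3 -0.13 to 0.20, stg -0.29 to 1.37, polo -0.08 to 0.98 and aurA -0.29 to 1.66. The cause of these changes was not tested.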

Other observations

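Among the further pathway genes, 2 chosen after their values were seen were, like CycB, lowest of batch 1 in 10% replicate 2 and highest in 20% replicate 2. gwl, the Greatwall kinase that protects mitotic phosphorylation, was at 2.39, 0.369 and 0.452 CPM in replicates 1, 2 and 3 at 10% oxygen, 3.17, 6.94 and 1.63 CPM at 20%, and 0.553 CPM at 40%. Its log2 fold change at 10% against 20% was -1.87 (SE 0.75, adjusted p = 0.782 by edgeR). CycJ, a cyclin known from the ovary and early embryo, was at 0.662, 0.0284 and 0.0903 CPM at 10%, 0.554, 1.90 and 0.172 CPM at 20%, and at 0 counts at 40%; unlike CycB, it overlapped between the groups in batch 1. The ovary germline markers orb and vas were at 5.07 and 0.0567 CPM and at 2.25 and 0.227 CPM in replicates 1 and 2 at 10%, against 4.18 and 30.1 CPM and 2.74 and 8.62 CPM at 20%.

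Another pair chosen in the same way did not show that order. RPA1, the large subunit of the single-strand binding protein, was at 21.0, 21.8 and 19.7 CPM at 10%, 20.3, 22 and 17.8 CPM at 20%, and 14.8 CPM at 40%, the lowest of all libraries. vtd, the cohesin subunit Rad21, was at 20.2, 21.5 and 21.9 CPM at 10%, 18.6, 17.8 and 21.9 CPM at 20%, and 21.8 CPM at 40%.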
